A study of Mus musculus with 12 samples.

Results

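Lactotransferrin (Ltf), cathelicidin (Camp), neutrophilic granule protein (Ngp), lipocalin 2 (Lcn2), chitinase-like 3 (Chil3), the neutrophil surface antigen Cd177 and the metalloproteinases Mmp8 and Mmp9 are the secondary and tertiary granule genes described here. They were taken by name from the deposited expression table, where they are 8 of the 34745 genes listed, and each matched 1 row. RNA was sequenced from all cells of the femoral marrow of 12 male ICR mice weighing 18 to 22 g, 3 mice in each of 4 groups, with 11172547 to 18545198 counts per library. The normal group received saline. The model, QJSB and leucogen groups all received cyclophosphamide, an alkylating agent that depletes the marrow, in daily doses of 80 mg/kg on days 5 to 7 of the week. The QJSB group in addition took Qi Jing Sheng Bai granule, a Chinese herbal preparation, in daily doses of 3 g/kg for 1 week, and the leucogen group took leucogen, a drug used against leucopenia, in daily doses of 20 mg/kg for 1 week. The model is a single short course of 1 drug in 1 outbred strain and 1 sex. Neither drug was given without cyclophosphamide. The table names its libraries Blank, Model, Positive or Stilbene. Blank was read as normal and Positive as leucogen by the meaning of the words, and Stilbene as QJSB by elimination, so every direction for these 3 groups rests on that reading.

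Neutrophils load their granules in sequence as they mature. Promyelocytes make the primary granules with myeloperoxidase and serine proteases, myelocytes and metamyelocytes then make the secondary granules with lactoferrin, cathelicidin and lipocalin, and band cells make the tertiary granules with gelatinase. Transcription of the later genes follows C/EBP factors, above all C/EBP epsilon, and PU.1, so that each granule gene marks the stage at which its product is made. Levels here are relative to the other RNA of a library. In whole marrow, a lower or higher level can come from the number of cells of a stage, the RNA in each cell or the amount of other RNA. These cannot be told apart in these libraries.

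On GRCm38, Camp lay on chromosome 9 at 109847379 to 109849617 (minus strand), Ngp at 110419747 to 110423012 (plus strand) and Ltf at 111019271 to 111042767 (plus strand), so that these 3 genes fell within 1195388 bases. Mmp8 stood far from them on the same chromosome at 7558429 to 7568486 (plus strand). Lcn2 lay on chromosome 2 at 32384633 to 32388252 (minus strand), Mmp9 on chromosome 2 at 164940780 to 164955850 (plus strand), Cd177 on chromosome 7 at 24743983 to 24760311 (minus strand) and Chil3 on chromosome 3 at 106147554 to 106167564 (minus strand). All 8 are annotated as protein-coding and overlap no other annotated gene. RefSeq promoters (GRCm38.p6, 250 bases before to 50 bases after the start) were at hand for 7 of the 8, all but Mmp9. The letters TTGCNNAA, a form of the C/EBP site, were searched on both strands and stood in 4 of the 7 (Ltf, Ngp, Mmp8 and Lcn2), and in 10.8% of 32851 promoters of the same length. The letters GAGGAA, the core of the PU.1 site, stood in 4 of the 7 (Ltf, Mmp8, Lcn2 and Cd177) and in 28.3% of all promoters. Camp, on chromosome 9, held no match to either motif and is not shown. The stretches below are those of Ltf, Ngp and Mmp8, the chromosome 9 genes with a match. Each ends just before the earliest annotated transcript, with matches to either motif in capitals. No match overlapped another, and a match is a description of letters, not of binding.
Ltf, chr9:111019042-111019270, plus strand: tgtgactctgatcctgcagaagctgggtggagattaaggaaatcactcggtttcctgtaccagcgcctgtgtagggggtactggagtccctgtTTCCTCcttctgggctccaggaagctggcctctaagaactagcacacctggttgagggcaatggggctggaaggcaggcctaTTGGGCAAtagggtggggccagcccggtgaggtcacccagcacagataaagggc
Ngp, chr9:110419558-110419746, plus strand: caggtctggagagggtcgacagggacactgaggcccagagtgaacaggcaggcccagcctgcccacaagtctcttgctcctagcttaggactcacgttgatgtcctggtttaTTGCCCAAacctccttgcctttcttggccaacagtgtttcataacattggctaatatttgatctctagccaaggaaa
Mmp8, chr9:7558179-7558428, plus strand: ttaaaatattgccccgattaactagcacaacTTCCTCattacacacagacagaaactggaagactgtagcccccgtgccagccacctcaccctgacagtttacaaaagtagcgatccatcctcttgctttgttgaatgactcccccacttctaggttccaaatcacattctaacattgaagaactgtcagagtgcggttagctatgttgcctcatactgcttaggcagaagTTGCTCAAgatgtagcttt
In Ltf the PU.1-like letters began 157 bases and the C/EBP-like letters 75 bases before the RefSeq start, both on the minus strand. In Mmp8 the PU.1-like letters began 219 bases upstream on the minus strand and the C/EBP-like letters 19 bases upstream on the plus strand. Ngp held 2 C/EBP-like matches, 138 bases upstream on the plus strand and 11 bases upstream on the minus strand. The latter lies past the end of the stretch shown.

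In the summed stromal and endothelial markers below, library 1 of the model and library 1 of the QJSB group stood apart from the others of their groups. Both also had the lowest sum of neutrophil surface and cytosol genes in their groups. Not every list set them apart: in the primary granule list model 1 lay between model 2 and 3. Over all genes with enough counts QJSB 1 stood apart and model 1 did not. There the chi-square per degree of freedom was 107 and 85.3 between QJSB 1 and the others, against 29.9 between QJSB 2 and 3. For model 1 it was 57.4 and 48.4, against 64.1 between model 2 and 3. The calls among the 8 genes and the gene lists in comparisons with the model, and the correlations, were also computed without model 1 and QJSB 1. Calls of the 8 genes that were lost or gained in this way are named. For list genes named in the text, the value is given where a call was lost or gained. Folds that moved without a change of call are not all given. The summed CPM (counts brought to a common library size with TMM factors) of 9 neutrophil surface and cytosol genes was 3546 in model 1 against 14780.0 and 7883 in model 2 and 3, and 4803 in QJSB 1 against 21350.0 and 17170.0 in QJSB 2 and 3. The summed CPM of 6 stromal and endothelial markers went the other way, with 554 in model 1 and 634.3 in QJSB 1 against 194.7 to 227 in the other 4 libraries of these groups. Model 1 also had the highest summed CPM of erythroid markers in the cyclophosphamide groups (1470.0 against 127 to 521). The part of these differences in the results was not tested. Neutrophil genes were abundant in every group. B cell markers summed to 1000.0 to 1037 CPM in normal marrow and 5.073 to 52.15 after cyclophosphamide, and erythroid markers to 10250.0 to 13390.0 in normal marrow.

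Together the 8 genes held 1.16% ± 0.0416 of all counts in normal marrow (SD, n = 3), 0.919% ± 0.323 in the model group, 1.75% ± 1.01 in the QJSB group and 2.23% ± 0.291 in the leucogen group. The normal libraries stayed between 1.12% and 1.2% and the leucogen libraries between 1.92% and 2.49%, with no overlap. The QJSB libraries spread from 0.592% in library 1 to 2.42% in library 3. By FPKM, which divides by transcript length, Ngp (1756 ± 49.1) led in normal marrow, followed by Chil3 (1362 ± 243), Camp (934 ± 117), Mmp8 (523 ± 24.3), Ltf (429 ± 11), Lcn2 (232 ± 22.7), Cd177 (171 ± 13.5) and Mmp9 (144 ± 12.3). Cd177 and Mmp9 were the only neighbours in this order whose normal libraries overlapped. In the 3 cyclophosphamide groups Chil3 came first (2234 ± 600.3 in the model, 3397 ± 2491 in the QJSB and 3865 ± 1304 FPKM in the leucogen group) and Ngp second, with overlapping libraries except in the model group. Mmp9 stayed last throughout, with 22.3 ± 16.2 FPKM in the model group.

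**Figure D1:**
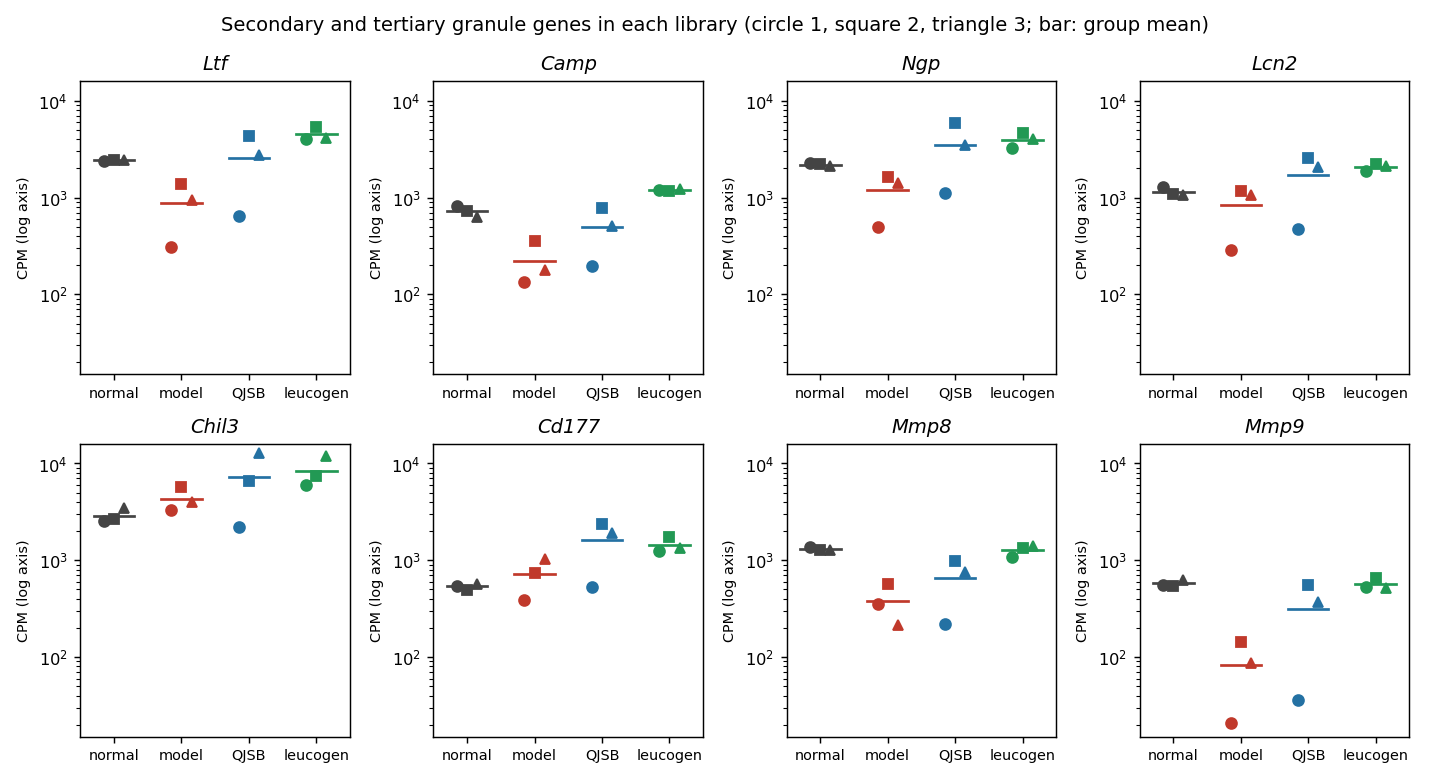
CPM of the 8 genes on a log axis in each library of the 4 groups, with the group mean as a bar and libraries 1, 2 and 3 as circle, square and triangle. Normal and leucogen libraries lie close together for most genes, while the circles of the model and QJSB groups are the lowest of their group for every gene other than Mmp8 in the model.

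Ltf encodes lactoferrin, the iron-binding protein of the secondary granule. It measured 2372, 2450.3 and 2455 CPM in normal libraries 1 to 3, 309, 1377 and 944 in the model, 648, 4294 and 2773 in QJSB, and 4002, 5341 and 4164 in leucogen. All model libraries lay below and all leucogen libraries above the normal ones, and the QJSB libraries lay on both sides. Camp encodes the antimicrobial peptide CRAMP. It measured 818, 722 and 626 CPM in normal, 134, 354 and 179.9 in model, 195, 778 and 504 in QJSB and 1200.3, 1177 and 1218 in leucogen libraries. The leucogen libraries agreed within 1.04 times of each other and exceeded all others.

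Ngp encodes a cystatin-like protein of the secondary granule. Its CPM was 2252, 2204 and 2100.3 in normal, 497, 1641 and 1417 in model, 1121, 5897 and 3462 in QJSB and 3279.6, 4624 and 3999 in leucogen libraries. QJSB 2 held the highest value of the series and QJSB 1 a value under that of the 2 higher model libraries. Lcn2 encodes neutrophil gelatinase-associated lipocalin, which binds bacterial siderophores. Its CPM was 1289, 1099.6 and 1065 in normal, 286, 1171 and 1069 in model, 472, 2574 and 2085 in QJSB and 1862, 2221 and 2137 in leucogen libraries. Model 2 and 3 lay within the normal range, and model 1 below it.

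Chil3, also called Ym1, is a chitinase-like lectin found in neutrophils as well as macrophages. Its CPM was 2531, 2656 and 3437 in normal, 3306, 5696 and 4026.5 in model, 2221, 6551 and 12873 in QJSB and 6023, 7439 and 11890.0 in leucogen libraries. The leucogen libraries all exceeded the model ones, whereas the QJSB libraries spanned the whole series. Its close copy Chil4 held at most 16 counts in any library, and reads that match both genes cannot be told apart here.

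Cd177 encodes a surface and granule membrane protein that binds proteinase 3 and Pecam1. Its CPM was 546, 495 and 574 in normal, 385, 743 and 1037 in model, 534, 2390.0 and 1899 in QJSB and 1241, 1732 and 1333 in leucogen libraries. Every leucogen library was above every normal and model library. Mmp8, neutrophil collagenase of the secondary granule, measured 1387, 1272 and 1265 CPM in normal, 354, 562 and 213 in model, 221, 985 and 763 in QJSB and 1072, 1348 and 1402 in leucogen libraries. Normal and leucogen libraries overlapped and all model and QJSB libraries lay below both.

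Mmp9, gelatinase B, is the classical product of the tertiary granule. It measured 557, 547 and 631 CPM in normal, 20.8, 143 and 87.2 in model, 36.1, 549 and 366 in QJSB and 524, 654 and 521 in leucogen libraries. It had the widest range within a group of the 8 genes, 6.86 times between the lowest and highest model library and 15.2 times in QJSB.

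Cyclophosphamide alone was compared with saline to ask how the late granule genes stood in the depleted marrow. Of the 8 genes, 3 fell past the cutoff of a fold change over 1.5 with a Benjamini-Hochberg adjusted p under 0.05 in edgeR's quasi-likelihood test, where 19.0% of 14752 genes tested fell. Mmp9 fell most, with a log2 fold change of -2.79 ± 0.643 (SE, 6.9-fold, adjusted p = 0.0152 in edgeR), followed by Mmp8 (-1.79 ± 0.323, adjusted p = 0.00368) and Camp (-1.69 ± 0.353, adjusted p = 0.00803). Ltf (-1.46 ± 0.489, adjusted p = 0.0514) and Ngp (-0.88 ± 0.398, adjusted p = 0.12) did not pass, although their model libraries did not overlap the normal ones. The 5 genes named so far had groups apart in this way, as had 28.6% of genes tested in this direction, and each gave the exact permutation p of 0.1, the smallest that 3 libraries against 3 allow. Lcn2 (-0.45, 95% interval -1.6 to 0.707), Cd177 (0.43, interval -0.314 to 1.17) and Chil3 (0.6, interval 0.082 to 1.12, adjusted p = 0.0631) did not pass and had overlapping libraries. The median log2 fold change of the 8 was -1.17, beside 0.02 over all genes tested. Without model 1, 6 of the 8 passed: Camp, Mmp8, Mmp9 and Ltf lower and Cd177 and Chil3 higher, with a median of -0.77. In that fit 2912 of 15005 genes were called lower and 2401 higher. DESeq2 also called 6, of which 5 were lower, beside 3040 genes lower and 2370 higher of 21863.

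**Figure D2:**
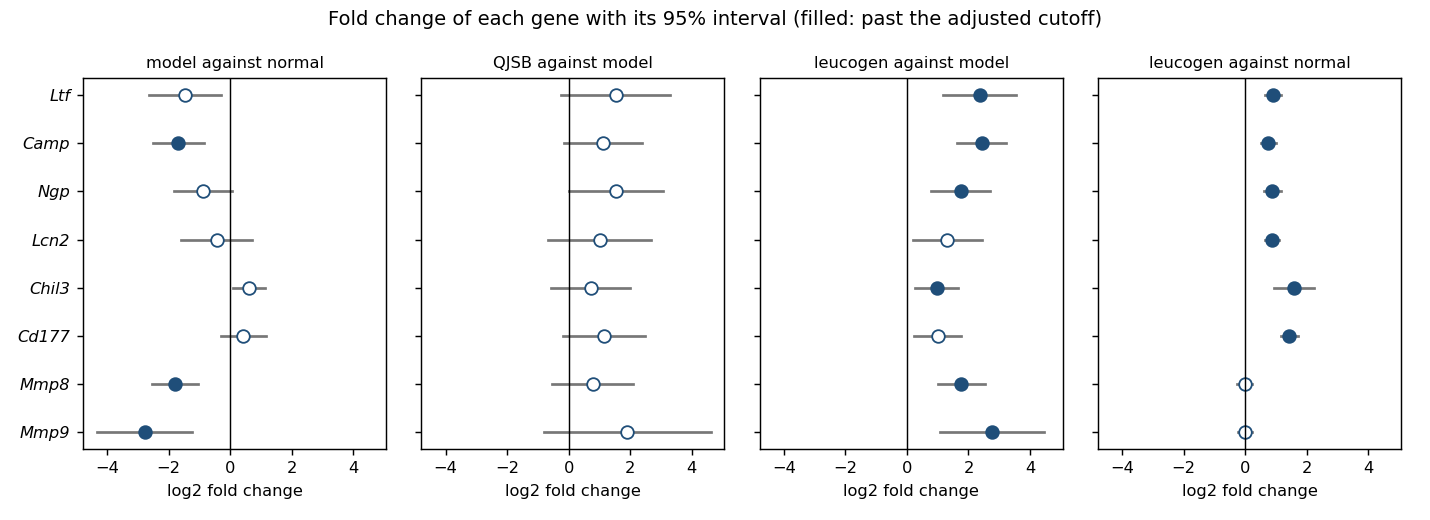
Log2 fold change of each gene (points) with its 95% interval from the edgeR fit (lines) in 4 comparisons, filled where the adjusted cutoff was passed. Chil3 and Cd177 lie to the right of 0 in the model group while the other 6 lie to the left, every gene lies to the right in both drug groups against the model, and Mmp8 and Mmp9 lie at 0 in leucogen against normal.

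QJSB was compared with the model to ask whether the herbal preparation changed the late granule genes in mice given the same cyclophosphamide. All 8 genes had positive log2 fold changes, with a median of 1.13 beside -0.02 over all genes tested. Not 1 passed with adjustment in edgeR, nor did any of the 14486 genes tested (0% called higher, smallest adjusted p = 0.767, 723 genes at an unadjusted p under 0.05). DESeq2 called 8 genes and none of these. The study used DESeq2 at the same fold change with an unadjusted p under 0.05. At that cutoff 4 of the 8 passed in DESeq2 (Ngp, Ltf, Cd177 and Camp, adjusted p = 0.852 to 0.893), where 1.81% of 21744 genes passed in that direction. In edgeR Ngp alone passed it (1.54 ± 0.646, adjusted p = 0.767), as did 1.68% of genes. With all 12 libraries in 1 fit, 5 of the 8 passed it, beside 434 of 15310 genes in that direction. The log2 fold changes were 1.91 ± 1.09 for Mmp9, 1.53 ± 0.748 for Ltf, 1.14 ± 0.568 for Cd177, 1.13 ± 0.54 for Camp, 1 ± 0.706 for Lcn2, 0.78 ± 0.559 for Mmp8 and 0.72 ± 0.556 for Chil3. Their 95% intervals ran from below 0 to between 2 for Chil3 and 4.62 for Mmp9. Libraries of the 2 groups overlapped for all 8 genes, while 9.80% of genes tested had groups apart in either direction.

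Deviations of model and QJSB libraries from their group means correlated between same replicate numbers (0.427, 0.123 and 0.107). The comparison was therefore also made with the replicate number as a block, although only 2 of the 6 libraries deviated most like the one of their own number. These libraries came from different mice and no label pairs them, so the block was chosen from these data. Between same-numbered libraries, Ltf was 2.1, 3.12 and 2.94 times higher in QJSB 1, 2 and 3, and Ngp 2.25, 3.59 and 2.44 times. Mmp9 was 1.74, 3.85 and 4.2 times higher, Camp 1.45, 2.2 and 2.8 times, Lcn2 1.65, 2.2 and 1.95 times, and Cd177 1.39, 3.22 and 1.83 times. These 6 genes were thus higher in QJSB in every numbered pair. Mmp8 (0.623, 1.75 and 3.59 times) and Chil3 (0.672, 1.15 and 3.2 times) were lower in the first pair and higher in the other two. With the block, Ltf (log2 fold change 1.41 ± 0.205) and Ngp (1.42 ± 0.215) passed with an adjusted p of 0.0378 in edgeR, among 0.0966% of genes called higher. Mmp9 (1.61 ± 0.25, adjusted p = 0.0657), Camp (1.04 ± 0.204, adjusted p = 0.136), Lcn2 (0.93 ± 0.189, adjusted p = 0.154) and Cd177 (0.99 ± 0.238, adjusted p = 0.23) did not pass. Mmp8 (0.65 ± 0.58, adjusted p = 0.752) and Chil3 (0.41 ± 0.418, adjusted p = 0.768) had the largest errors beside their fold changes. Leaving out both model 1 and QJSB 1 left the median at 1.23 and 1 gene past the cutoff in edgeR, Mmp9 (1.96 ± 0.285, adjusted p = 0.0376), with Ngp (1.58 ± 0.291, adjusted p = 0.067) and Ltf (1.57 ± 0.291, adjusted p = 0.0691) short of it. In that fit 16 of 14399 genes were called higher.

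**Figure D3:**
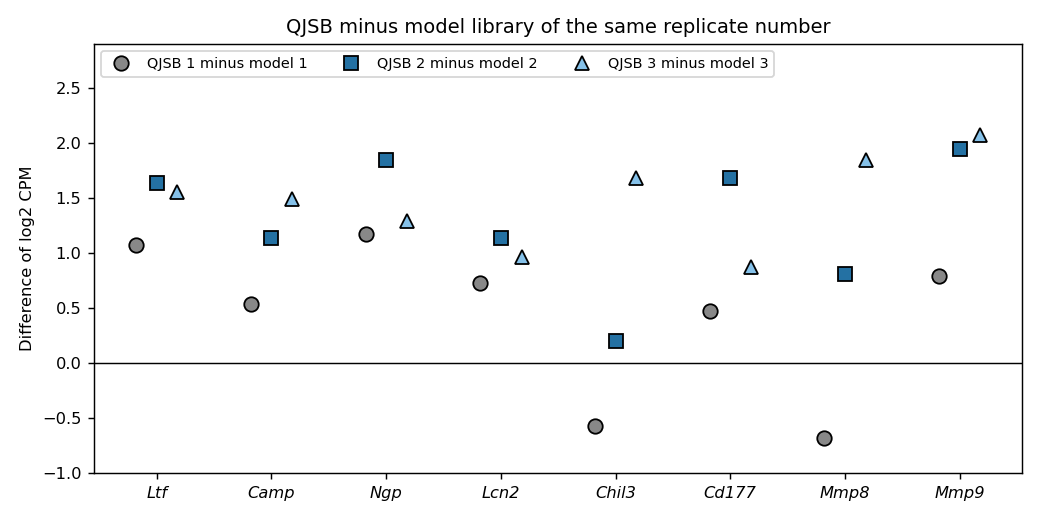
Difference of log2 CPM between the QJSB and the model library of the same replicate number (y axis) for each of the 8 genes (x axis). The lowest point of every gene belongs to pair 1, where 6 genes are above 0, and all 16 points of pairs 2 and 3 are above 0.

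Leucogen was compared with the model in the same way. All 8 genes were higher and 6 passed the adjusted cutoff in edgeR, where 11.6% of 14184 genes tested rose. Mmp9 rose by a log2 fold change of 2.77 ± 0.678 (6.82-fold, adjusted p = 0.0334 in edgeR), Camp by 2.43 ± 0.343 (5.4-fold, adjusted p = 0.00413), Ltf by 2.37 ± 0.503 (5.16-fold, adjusted p = 0.0161), Mmp8 by 1.76 ± 0.332 (3.4-fold, adjusted p = 0.00921), Ngp by 1.75 ± 0.413 (3.36-fold, adjusted p = 0.0199) and Chil3 by 0.97 ± 0.308 (1.96-fold, adjusted p = 0.0448). Lcn2 (1.31 ± 0.476, adjusted p = 0.0823) and Cd177 (1 ± 0.331, adjusted p = 0.0569) missed the cutoff. The libraries of the 2 groups did not overlap for any of the 8 genes, as was so for 22.2% of genes tested in this direction. The median log2 fold change of the 8 was 1.76, beside -0.05 over all genes tested. The number of calls rested on single libraries: 3 genes passed without model 3 or without leucogen 2, and 2 (Camp and Mmp8) without leucogen 3, with all 8 log2 fold changes positive each time. Among all genes, 1504 of 14475 were called higher without model 3, 1284 of 14482 without leucogen 2 and 743 of 14680 without leucogen 3. Without model 1, 6 of the 8 passed, beside 1263 of 14273 genes called higher, with Lcn2 now among the 6 in place of Chil3.

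Against normal marrow, the leucogen libraries held a larger share of counts for 6 of the 8 genes, and the 2 metalloproteinases were the exceptions. These levels are relative to the other RNA of a library. Erythroid markers summed to 144.7 to 521 CPM in leucogen and 10250.0 to 13390.0 in normal libraries. The part of this difference in the levels was not tested. The 6 genes were higher past the adjusted cutoff in edgeR, where 17.8% of 14637 genes tested rose. Chil3 (1.58 ± 0.269, 2.98-fold, adjusted p = 0.00263) and Cd177 (1.43 ± 0.128, 2.7-fold, adjusted p = 9.89e-06) rose most. Ltf (0.91 ± 0.118, 1.88-fold, adjusted p = 0.000126 in edgeR), Ngp (0.88 ± 0.123, 1.84-fold, adjusted p = 0.000209), Lcn2 (0.87 ± 0.108, 1.83-fold, adjusted p = 9.38e-05) and Camp (0.75 ± 0.107, 1.69-fold, adjusted p = 0.000229) followed. Mmp8 (-0.02, 95% interval -0.265 to 0.229) and Mmp9 (-0.01, interval -0.251 to 0.23) gave narrower intervals than any other value here whose interval includes 0. The 6 genes that rose had libraries apart from the normal ones, beside 29.5% of genes tested. With all 12 libraries in 1 fit, which shares the wide spread of the model and QJSB groups, only Cd177 and Chil3 of the 6 passed. In that fit 2281 of 15310 genes were called higher.

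QJSB against normal gave 1 gene past the adjusted cutoff in edgeR, Cd177 (1.59 ± 0.476, 3.01-fold, adjusted p = 0.03), where 18.0% of 14817 genes rose. Its libraries overlapped the normal ones, and the call was lost when any of the 3 normal libraries, QJSB 2 or QJSB 3 was left out. Without QJSB 1, Cd177, Chil3, Lcn2 and Ngp passed, beside 2822 of 14991 genes called higher. The other 7 had log2 fold changes from -0.99 ± 0.465 for Mmp8 to 1.34 ± 0.546 for Chil3. The 2 drug groups were also set against each other, at different doses by weight as given. Not 1 of the 8 genes passed with adjustment in edgeR (11.7% of 14266 genes were lower in QJSB), and 1, Camp, passed the unadjusted cutoff (-1.3 ± 0.435, adjusted p = 0.0595), as did 14.8% of genes in that direction. Camp and Mmp8 (-0.98 ± 0.488) were lower in every QJSB library than in every leucogen library, beside 23.2% of genes. Without QJSB 1 or without QJSB 2, Camp passed the adjusted cutoff, where 1810 of 14414 and 1433 of 14537 genes were called lower. For Ngp (-0.2, 95% interval -1.41 to 1), Chil3 (-0.24, interval -1.63 to 1.14), Lcn2 (-0.3, interval -1.58 to 0.984) and Cd177 (0.15, interval -1 to 1.29) the intervals allow differences of either sign, so no likeness of the 2 drugs can be read from them. The comparisons with the model share its 3 libraries, and those with normal share the normal ones.

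Ratios of counts within a library do not depend on the scaling between libraries. The log2 ratio of Ltf to Mpo, the myeloperoxidase gene of the earlier primary granule, was 2.52, 2.84 and 2.83 in normal libraries, -3.39, -0.75 and -2.32 in model, -2.82, -0.02 and -0.56 in QJSB and 1.57, 1.54 and 1.84 in leucogen libraries. Normal marrow thus held 5.72 to 7.18 Ltf counts for each Mpo count and model marrow 0.0955 to 0.595. Leucogen libraries lay between normal and QJSB libraries without touching either (exact permutation p = 0.1 for each, the smallest possible), and QJSB overlapped the model (difference 1.02, exact permutation p = 0.4). The log2 ratio of Mmp9 to Ltf was -2.07 ± 0.102 in normal (SD, n = 3), -3.53 ± 0.322 in model, -3.35 ± 0.705 in QJSB and -2.99 ± 0.0497 in leucogen libraries. The model, QJSB and leucogen libraries all lay below the normal ones, by 1.46, 1.28 and 0.92 (exact permutation p = 0.1 for each).

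The log2 ratio of Chil3 to Ltf was 0.23 ± 0.22 in normal, 2.52 ± 0.78 in model, 1.53 ± 0.83 in QJSB and 0.86 ± 0.569 in leucogen libraries. The model libraries were apart from the normal and the leucogen libraries (exact permutation p = 0.1 for each) and overlapped the QJSB ones (0.3). There were 10.7, 4.14 and 4.27 Chil3 counts for each Ltf count in model 1, 2 and 3, against 1.07, 1.08 and 1.4 in normal 1, 2 and 3. Camp and Ngp, both secondary granule genes, also differed in proportion. Their log2 ratio was -1.61 ± 0.142 in normal, -2.36 ± 0.557 in model, -2.74 ± 0.2 in QJSB and -1.71 ± 0.262 in leucogen libraries. QJSB libraries lay below all normal and all leucogen libraries, by 1.14 and 1.03 (exact permutation p = 0.1 for each), and normal and leucogen libraries overlapped (0.7). The model libraries also lay below all normal ones (difference -0.754, exact permutation p = 0.1). They overlapped the QJSB (exact permutation p = 0.4) and the leucogen libraries (0.2).

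**Figure D4:**
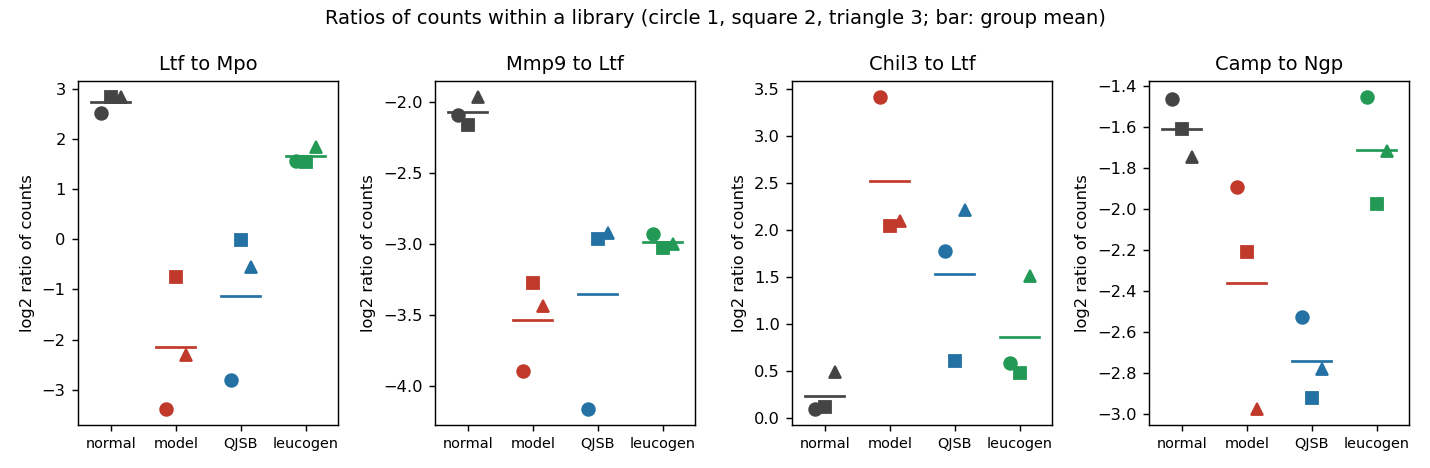
Log2 ratio of counts of 2 genes within each library (y axis) by group (x axis), with the group mean as a bar and libraries 1, 2 and 3 as circle, square and triangle. Ltf to Mpo falls from about 2.73 in normal to -2.15 in model libraries and stands at 1.65 in leucogen libraries, and Mmp9 to Ltf in leucogen libraries stays below every normal library.

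Over the 12 libraries the log2 CPM of the 8 genes correlated with Pearson's r from 0.276 (Cd177 and Mmp8) to 0.967 (Ngp and Lcn2), with a median of 0.823 over 28 pairs. After the group means were taken out, r ran from 0.621 (Cd177 and Mmp8) to 0.993 (Ltf and Mmp9), with a median of 0.883. The 7 pairs with Chil3 had a median of 0.714 and the 21 without it 0.93. These values rested on library 1 of the model and of the QJSB group. Over the 10 other libraries the median over the 28 pairs was 0.694, and 0.551 after the group means were taken out. The median of the deviations then was -0.22 for the pairs with Chil3 and 0.661 for those without it. The points share their libraries, and library 1 of the model and of the QJSB group lay lowest in its group for most of the 8. The 5 other genes whose profile was most like the mean profile of the 8 were Trem1, a receptor that amplifies inflammatory signals on neutrophils and monocytes (r = 0.983), 6430548M08Rik (0.983), the glucose transporter gene Slc2a3 (0.982), Esyt2 (0.981) and the myeloid receptor gene Cd300lf (0.979). Over the 10 other libraries their r was 0.942 to 0.958. Slc2a3 measured 194 ± 14.5 CPM in normal, 99.5 ± 34.5 in model, 208 ± 119 in QJSB and 305 ± 21.5 in leucogen libraries.

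The nearest expressed genes on either side of Camp, Ngp and Ltf were read beside them. The cell cycle phosphatase gene Cdc25a, 25962 bases from Camp, was higher in the model (log2 fold change 0.68, adjusted p = 0.0104 in edgeR), where Camp was lower. On its other side, Nme6, at 4263 bases, had 0.72 (0.0516). Klhl18, 2914 bases from Ngp, had 0.42 (0.0386), short of the fold cutoff, and Ptpn23, 11534 bases away on the other side, had 0.16 (0.424). In leucogen against the model these 4 had log2 fold changes of -0.1 to 0.28, and none passed. Beside Ltf, Gm10030 and Gm43814 stayed at group means of 0.201 to 1.1 CPM. Gm43814 fell in the model (log2 fold change -2.38, adjusted p = 0.00288), a fold that rests on few counts.

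Other genes of the same granules, were read from a list of 10 matrix and a list of 9 membrane genes. In the model the median log2 fold change was 0.11 for the matrix list, with 5 of 9 genes higher, and -0.46 for the membrane list, with 2 of 9 higher, beside -1.17 for the 8 genes. Of the 9 matrix genes tested, 3 fell and 2 rose past the adjusted cutoff in edgeR, where 19.0% of all genes fell and 16.1% rose: Olfm4, the marker of a neutrophil subset (-2.54, adjusted p = 0.0062), Adam8 (-2.4, adjusted p = 0.00358) and Lyz2, lysozyme (-0.9, adjusted p = 0.036), were lower, and haptoglobin Hp (1, adjusted p = 0.00305) and Qsox1 (0.93, adjusted p = 0.00312) higher. Without model 1, Lyz2 did not pass (-0.96, adjusted p = 0.0526). With leucogen, 6 of 10 rose over the model and none fell, where 11.6% of all genes rose, Ptx3 (2.36, adjusted p = 0.00853) and Adam8 (2.15, adjusted p = 0.0107) most. Ptx3 measured only 0.359 ± 0.192 CPM in model and 1.9 ± 0.351 in leucogen libraries, so its fold rests on few counts. Of the membrane genes, the formyl peptide receptor genes Fpr1 (-2.76, adjusted p = 0.0163) and Fpr2 (-1.52, adjusted p = 0.00139) and the metal transporter gene Slc11a1 (-1.42, adjusted p = 0.00456) fell in the model, and the oxidase subunit gene Cyba (0.62, adjusted p = 0.0197) rose. Mmp25 had -1.13 (adjusted p = 0.124), and passed without model 1 (-0.69, adjusted p = 0.0127). With leucogen, 6 of 9 rose over the model, led by Fpr2 (2.46, adjusted p = 0.00379) and Mmp25 (2.01, adjusted p = 0.0353), and none fell. In QJSB against the model none of either list passed (0 of 18 tested), and 17 had positive log2 fold changes. Without both model 1 and QJSB 1, Adam8 (1.67, adjusted p = 0.0395) and Mmp25 (1.51, adjusted p = 0.0395) passed. The medians in QJSB against the model were 0.59 for the matrix and 0.72 for the membrane list. Itgam shares its locus with a second annotated gene, so its reads may be split.

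Among 7 primary granule genes, all 7 rose in the model past the adjusted cutoff in edgeR, where 16.1% of genes tested rose, with a median log2 fold change of 2.94, led by Ctsg (3.66, adjusted p = 1.56e-05) and Prtn3 (3.46, adjusted p = 9.92e-05). Mpo measured 367 ± 41.1 CPM in normal, 3418 ± 1208 in model, 4336 ± 237 in QJSB and 1448 ± 348 in leucogen libraries. Elane, neutrophil elastase, went from 187 ± 30.6 to 1190.0 ± 363 CPM in the model (2.67, adjusted p = 9.25e-05). With leucogen, 5 of 7 fell against the model, Mpo (-1.23, adjusted p = 0.0138) and Prtn3 (-1.05, adjusted p = 0.0122) most, where 11.5% of genes tested fell. All 7 were still called higher than in normal marrow, beside 17.8% of genes tested. In QJSB against the model none passed, 5 of 7 were higher and the median was 0.15. The calls of this list stayed without model 1 in both comparisons.

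Of 9 neutrophil surface and cytosol genes, 3 fell in the model, where 19.0% of genes tested fell, with Retnlg (-3.95, adjusted p = 0.0382 in edgeR) and Ly6g (-3.05, adjusted p = 0.0175) lowest. Of the 9, 5 rose in leucogen against the model, where 11.6% of genes tested rose, with Ly6g (3.87, adjusted p = 0.0202 in edgeR) and Padi4 (2.74, adjusted p = 0.0158) highest. The calprotectin genes S100a8 (-0.54, adjusted p = 0.449) and S100a9 (-0.58, adjusted p = 0.405) did not pass in the model. In leucogen against the model S100a8 rose by 2.34 (adjusted p = 0.016) and S100a9 by 2.32 (adjusted p = 0.0175). Csf3r, the G-CSF receptor gene, passed in neither, with -0.7 (adjusted p = 0.0681) in the model and 0.37 (adjusted p = 0.306) in leucogen against the model. None of the 9 passed in QJSB against the model, and Padi4 alone (1.34, adjusted p = 0.0483) did without both model 1 and QJSB 1.

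**Figure D5:**
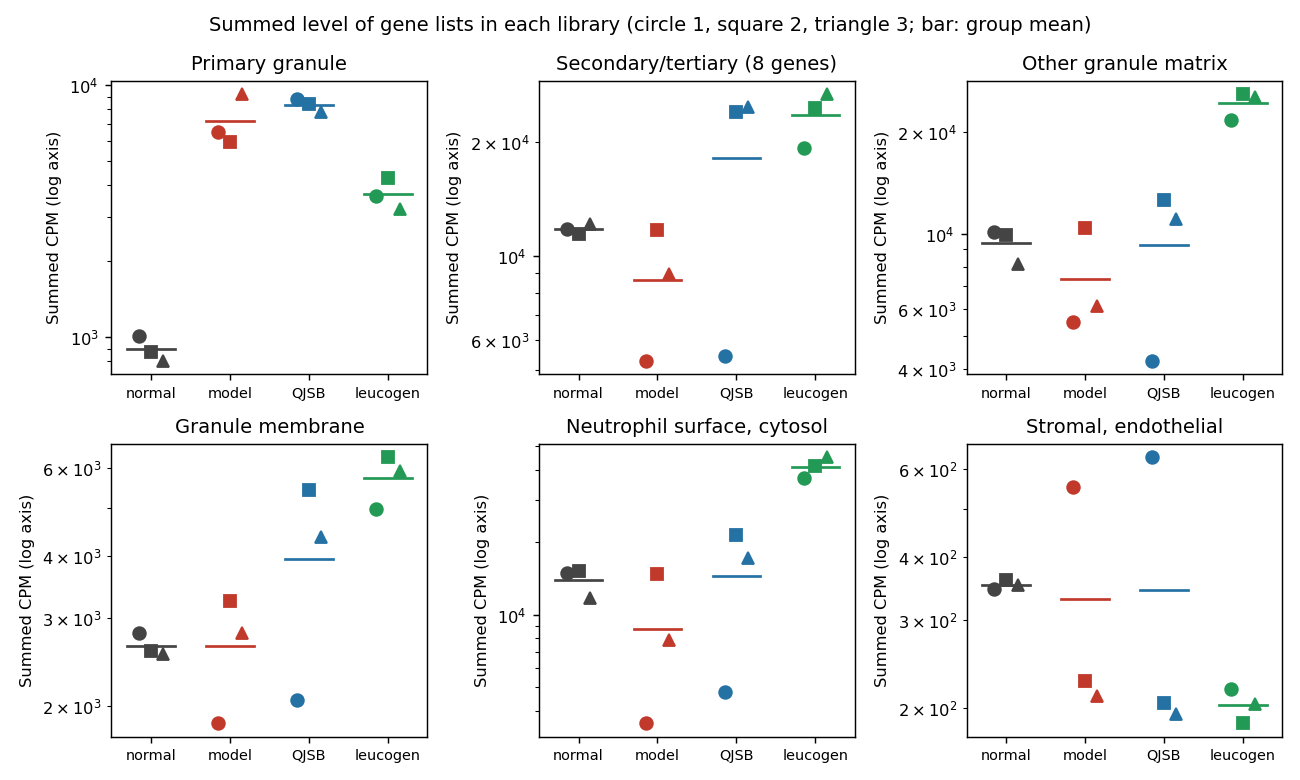
Summed CPM (log axis) of 6 gene lists in each library, with the group mean as a bar and libraries 1, 2 and 3 as circle, square and triangle. The primary granule list lies highest in the model and QJSB libraries, the other matrix and the neutrophil lists in the leucogen libraries, and the stromal and endothelial list in model 1 and QJSB 1.

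For the 2 lists that follow, 16.1% of all genes tested rose and 19.0% fell in the model. In leucogen against the model 11.6% rose and 11.5% fell. Among 9 transcription factors of granule genes, 5 rose in the model and none fell, with Gfi1 (2.12, adjusted p = 0.00461 in edgeR) and Cebpb (1.68, adjusted p = 0.00416) highest. Cebpe, the factor most tied to secondary granule genes, measured 56.6 ± 4.11 CPM in normal, 72.4 ± 26.2 in model, 125 ± 51.9 in QJSB and 116 ± 18.4 in leucogen libraries and passed neither in the model (0.36, adjusted p = 0.291, and 0.63, adjusted p = 0.0141 past the cutoff without model 1) nor in leucogen against the model (0.68, adjusted p = 0.0842). Against normal marrow Cebpe was called higher in both the leucogen and the QJSB group, where 17.8% and 18.0% of genes tested rose. Runx1 (0.61, adjusted p = 0.0112) and Cebpd (0.6, adjusted p = 0.048) rose in leucogen against the model, and Cebpa (-0.79, adjusted p = 0.00938) fell. Cebpd did not pass without model 1 (0.48, adjusted p = 0.136). Among 8 tested genes for receptors, ligands and inhibitors of the 8 proteins, 3 rose in the model, among them Lrp2 and Lrp1 (2.05, adjusted p = 1.14e-05), endocytic receptors that take up lipocalin and metalloproteinases. Lrp2 measured 0.0483 ± 0.0836 CPM in normal and 1.74 ± 0.359 in model libraries, and no fold is given against so few counts. Fpr2, the receptor of the human cathelicidin peptide, and Timp2, an inhibitor of metalloproteinases (-1.71, adjusted p = 8.2e-05), fell. In leucogen against the model these 4 passed in the opposite direction, Fpr2 at 2.46, Timp2 at 1.53 (adjusted p = 0.00177) and Lrp1 at -1.05 (0.00275). Lrp2 passed at an adjusted p of 0.00678 in edgeR, with 0.33 ± 0.048 CPM in leucogen libraries, again too few counts for a fold. Timp1, the inhibitor that binds Mmp9, was at 0 counts in 7 of 12 libraries and at most 0.173 CPM in the others. None of either list passed in QJSB against the model.

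Markers of other cells that can hold these transcripts were read beside them, since Chil3 is made by macrophages and Mmp9 by osteoclasts. Which cells the Chil3 and Mmp9 counts came from was not tested. Of all genes tested, 19.0% fell and 16.1% rose in the model, and 11.5% fell and 11.6% rose in leucogen against the model. Of 8 macrophage markers 5 fell in the model, where Chil3 had a log2 fold change of 0.6: C1qc (-1.94, adjusted p = 0.000205 in edgeR), Cd5l (-1.66, adjusted p = 0.0255) and C1qa (-1.61, adjusted p = 0.000237) among them. Their summed CPM was 478 to 535 in normal, 227 to 361 in model, 251 to 331 in QJSB and 227 to 265 in leucogen libraries. In leucogen against the model, where Chil3 rose, Cd68 (-1.15, adjusted p = 0.00804) and Adgre1 (-1.28, adjusted p = 0.0273) fell and Cd5l (1.09, adjusted p = 0.0423) rose. Without model 1, Cd5l passed neither in the model (-1.43, adjusted p = 0.0622) nor in leucogen against it (0.88, adjusted p = 0.108), and Adgre1 did not pass (-0.99, adjusted p = 0.0646). Of 7 osteoclast markers only 3 were expressed enough to be tested. In the model Acp5 fell (-2.06, adjusted p = 0.00117), Atp6v0d2 rose (1.69, adjusted p = 0.00384) and Ctsk had -0.15 (0.824). Calcr, Oscar, Dcstamp and Ocstamp were each at 0 counts in 3 to 4 libraries. In leucogen against the model, where Mmp9 was 6.82-fold higher, Acp5 had -0.38 (adjusted p = 0.404), Ctsk -1 (0.372) and Atp6v0d2 0.41 (0.362), and the osteoclast markers summed to 21.7 to 25.7 CPM against 19.7 to 31.8 in the model. Of 6 monocyte markers 5 rose in the model, Ms4a6c (2.04, adjusted p = 0.00174) and F13a1 (1.7, adjusted p = 0.000355) most, and 2 fell in leucogen against the model, Csf1r (-0.98, adjusted p = 0.00434) and F13a1 (-0.81, adjusted p = 0.0222, and -0.54 without model 1, short of the fold cutoff).

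Most markers of the remaining cell types fell in the model. All 6 B cell, all 6 erythroid, all 5 T and NK cell and 5 of 6 eosinophil markers fell past the adjusted cutoff in edgeR. Of all genes tested 19.0% fell and 16.1% rose. None of 4 megakaryocyte markers passed, although Gp9 did without model 1 (-1.52, adjusted p = 0.00214). Of 6 stromal and endothelial markers, Cdh5 rose (0.81, adjusted p = 0.0281), and did not pass without model 1 (0.75, adjusted p = 0.0602). Cxcl12 (-1.57, adjusted p = 0.00013) and Pecam1 (-0.62, adjusted p = 0.00878) passed, both lower, only without model 1. In leucogen against the model Col1a1 (-2.77, adjusted p = 0.0252), Cd79b (-1.27, adjusted p = 0.0292) and Cd3d (2.33, adjusted p = 0.0028) were called from these 6 lists, beside 11.6% of genes tested called higher and 11.5% lower. Without model 1, Col1a1 had -1.77 (adjusted p = 0.00203), Cd79b did not pass (-0.72, adjusted p = 0.0796) and Cxcl12 passed (1.03, adjusted p = 0.00688). In QJSB against the model none of the marker genes passed, with or without model 1 and QJSB 1.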

How the data were processed

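Total RNA of femoral marrow cells was depleted of ribosomal RNA, made into strand-specific libraries and sequenced by the authors, who mapped reads with HISAT2 to GRCm38.p4 (mm10). The program that counted reads per gene is not given in the sources used here. The deposited table holds raw read counts per gene and library without normalization, and FPKM, which the authors computed from fragments, transcript length and total fragments. Column headings were matched to groups by their meaning, and 0 value columns were left unused. Depth was 11172547 to 18545198 counts per library, and no 2 libraries of a group agreed within sampling noise. The labels call the 3 samples of a group biological replicates.

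Counts were tested with edgeR 4.0.16 (TMM, filterByExpr, robust quasi-likelihood fit) in R 4.3.3, in a fit of the 2 groups compared, for 6 comparisons, with Benjamini-Hochberg adjustment over all genes tested. Log2 CPM used a prior count of 2. Ratios and single values were compared by exact two-sided permutation tests (smallest p 0.1). Alternatives were DESeq2 1.42.0, limma 3.58.1 on log2(FPKM + 0.1) and log2(FPKM + 1) of the deposited FPKM (mean FPKM 0.1 or more), other scalings and filters, all 12 libraries in 1 fit, a replicate block, and each library left out. The scripts were tested on simulated data. Same-numbered model and QJSB libraries came from different mice, and the labels give the numbers without stating a pairing. For the block they were taken as paired because deviations from group means correlated in all 3 pairs (0.427, 0.123 and 0.107 over 15310 genes, minimum 0.1). That choice was made from these data.

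The 8 genes and the lists were chosen with earlier results of these data known. Beyond the 8, the text names the 5 genes of most similar profile over 12 libraries, at most the 2 largest rises and 2 largest falls per list past the adjusted cutoff in the model against normal and each drug against the model, 10 defining genes whatever they did (Mpo, Elane, Cebpe, Csf3r, S100a8, S100a9, Timp1, C1qa, Acp5 and Ctsk), and the nearest expressed neighbours of Camp, Ngp and Ltf. Lyz2, Slc11a1, Itgam, Gp9, Cxcl12, Pecam1 and the osteoclast genes at 0 were named after their values were seen. Where a symbol had 2 rows (Itgam), the row with more counts was used. Motif searches covered the RefSeq promoters of GRCm38.p6. The 8 genes were given no set test. A result that the naming rule would have added is not reported here.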

Additional observations from a re-analysis of the deposited data

How the results depend on the processing

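Of the 728 log2 fold changes of single genes under the alternatives, 640 kept their direction and their side of the cutoff, 33 passed it newly, 36 lost it and 19 changed sign. Of the counts of genes called, 63 stayed and 28 moved, and the shares of counts all stayed. Where a count moved the cause was not tested. In model against normal 3 genes were called, 6 with DESeq2 and 3 to 6 with 1 library left out. In QJSB against model 0 were called, and 0 with any 1 library left out. The replicate block, chosen from correlations in these data, gave 2. Leaving out both model 1 and QJSB 1, an alternative chosen after seeing the data, gave 1. In leucogen against model 6 were called, 3 without a filter on low counts and 2 to 6 with 1 library left out. In leucogen against normal 6 were called, 2 with all 12 libraries in 1 fit. In QJSB against normal 1 was called, 2 with DESeq2, 0 without a filter, 0 with the replicate block, 0 with limma on FPKM at either pseudocount and 0 to 4 with 1 library left out. In QJSB against leucogen 0 were called, 1 (Camp) with DESeq2, total counts, a minimum of 10 counts, 1 fit of all libraries or limma at either pseudocount, and 0 to 1 with 1 library left out. The signs that changed belonged to values near 0 or to wide groups. For Ltf in QJSB against normal the log2 fold change was -0.25 with the replicate block, -0.273 and -0.271 with limma at pseudocounts of 0.1 and 1, and -0.488 to 0.551 with 1 library left out. For Cd177 in QJSB against leucogen it was -0.086 with the replicate block, -0.016 and -0.015 with limma, and -0.24 to 0.554 with 1 library left out. With 1 library left out, Chil3 ran from -0.001 to 1.15 in QJSB against model, and in leucogen against normal Mmp8 ran from -0.104 to 0.089 and Mmp9 from -0.138 to 0.053. In QJSB against leucogen, Lcn2 ran from -0.7 to 0.142, Ngp from -0.794 to 0.211 and Chil3 from -0.979 to 0.179. The log2 ratio of Mmp9 to Ltf ran from -0.0321 to 0.59 in QJSB against model and from -0.579 to 0.0433 in QJSB against leucogen, and that of Camp to Ngp from -0.238 to 0.0235 in leucogen against normal. Scaling by total counts in place of TMM moved the median of all genes from 0.02 to 0.14 in model against normal, with 3024 genes higher and 2346 lower in place of 2368 and 2803. It moved it from -0.05 to -0.22 in leucogen against model, with 1150 higher and 2655 lower in place of 1640 and 1635. No gene of the 8 changed direction under it. Leaving model 1, or model 1 and QJSB 1, out of the gene lists and correlations was chosen after seeing the data. Outside QJSB against model the replicate numbers did not pair the libraries by correlation, and in QJSB against leucogen, where all 6 libraries deviated most like their own number, 1 of the 3 correlations was under 0.1. There the block gave 3 calls in model against normal, 7 in leucogen against model, 6 in leucogen against normal and 0 in QJSB against leucogen. With 3 mice a group, an exact permutation p cannot fall below 0.1. Counting error is small beside the spread between mice for these genes.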
